A study of Homo sapiens with 16 samples.

Results

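The genes described here are regulators of messenger RNA decay and of proliferation: ZFP36, ZFP36L1, ZFP36L2, ZC3H12A, ISG20, TOB1, BTG1, BTG2, REL and UPF1. They were chosen by name, as every annotated probe of 10 listed genes. Of the 10 genes, 9 had a probe in the annotation, 10 probes in all among 47323 on the array. BTG2 had no probe there and is not analysed here. Both probes of REL had a detection p-value above 0.01 on all 16 arrays, the lowest in the authors' deposited table being 0.01039, so REL was not above background and was not tested. The other 8 genes had 1 probe each, detected on 16 of 16 arrays, and were tested among 10163 genes. The cells were MM1.S, a human line of multiple myeloma, the cancer of antibody-secreting plasma cells. They received 1 uM dexamethasone, a synthetic glucocorticoid, for 4 h or for 0 h. RNA of whole cells (total RNA) and RNA from polysomes, separated in sucrose and combined into pools A, B and C, were hybridised to Illumina bead arrays, with 2 arrays in each of 8 groups. The labels number the arrays of a group but name no separate cultures, so p-values measure only the spread between arrays, which may be technical. A line of myeloma cells grown alone holds no other marrow cells, and the labels do not say where in the gradient a pool begins or ends.

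Messenger RNAs are usually destroyed after their poly(A) tail has been shortened by the CCR4-NOT deadenylase, and several of these proteins bring that complex to chosen transcripts. ZFP36 (tristetraprolin), ZFP36L1 and ZFP36L2 are zinc finger proteins that bind AU-rich elements, while BTG1, BTG2 and TOB1 bind the catalytic subunits of the deadenylase and are known as brakes on proliferation. ZC3H12A (Regnase-1) is an endonuclease that cleaves stem-loops in inflammatory mRNAs, ISG20 is an interferon-induced exonuclease, and UPF1 is the RNA helicase of nonsense-mediated decay, which acts on mRNAs while they are translated. REL is a transcription factor of the NF-kB family whose mRNA is cut by Regnase-1 in mouse T cells. Glucocorticoids act through the receptor NR3C1, which enters the nucleus and regulates transcription, and ZFP36 is among the genes they are known to induce in other cells.

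Promoter sequences are shown for ZC3H12A, BTG1 and ISG20, which were among the members that stood higher at 4 h in total RNA and whose promoter held a match to a motif searched. They are the 250 bases before an annotated start, read 5′ to 3′ on the strand of the gene, from RefSeq on GRCh38.p14. The stretches of ZC3H12A and BTG1 end where the gene begins. For ISG20 the start used lies inside the gene, which spans chr15:88635632-88656483, so its stretch does not precede the whole gene. Capitals mark the matched letters, which are the TATA motif in ZC3H12A and BTG1 and the core of an interferon-stimulated response element in ISG20.
ZC3H12A (chr1:37474330-37474579, plus strand): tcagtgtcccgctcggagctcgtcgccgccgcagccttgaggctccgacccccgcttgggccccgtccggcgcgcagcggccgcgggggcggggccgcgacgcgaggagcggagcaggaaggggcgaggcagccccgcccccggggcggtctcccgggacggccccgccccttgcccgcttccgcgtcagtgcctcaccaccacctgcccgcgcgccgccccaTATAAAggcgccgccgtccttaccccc
BTG1 (chr12:92145847-92146096, minus strand): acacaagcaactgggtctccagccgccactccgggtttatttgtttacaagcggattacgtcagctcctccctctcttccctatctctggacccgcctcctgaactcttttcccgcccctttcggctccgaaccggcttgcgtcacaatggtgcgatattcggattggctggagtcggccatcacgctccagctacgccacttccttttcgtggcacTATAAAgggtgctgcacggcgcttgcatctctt
ISG20 (chr15:88638766-88639015, plus strand): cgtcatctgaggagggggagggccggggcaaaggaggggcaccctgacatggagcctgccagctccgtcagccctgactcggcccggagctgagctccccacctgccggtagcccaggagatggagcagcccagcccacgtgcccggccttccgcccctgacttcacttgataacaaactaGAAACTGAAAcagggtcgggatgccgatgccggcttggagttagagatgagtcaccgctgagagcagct

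A window of 300 bases, from 250 before to 50 after the start, was found for 9 of the 10 listed genes. None was found for ZFP36L2, so what follows does not cover that gene, while BTG2 and REL are included though not tested. ZFP36L1 and TOB1 had 2 windows each, which gave 11 windows in all. A set of 5 motifs was searched on both strands, and both the motifs and the sequences shown were chosen after the windows had been read. TATAAA was found in ZC3H12A, with its first base at -27 from the start, and in BTG1 at -33. It occurs in 11.5% of the 35116 windows of that length. GAAA, any 2 bases and GAAA was found in ISG20 at -69, counted from the start inside the gene. It was also found in 1 window of ZFP36L1 at -10 on the opposite strand, against 3.57% of all windows. TGACGTCA, the cyclic AMP response element, was found in the other window of ZFP36L1 at -52, against 1.85% of all windows. The palindromic glucocorticoid response element (AGAACA, any 3 bases, TGTTCT) and its looser core (GNACA, any 3 bases, TGTNC, where N is any base), which overlap each other, were found in 0 of the 11 windows, against 0.00285% and 0.39% of all windows. A match is a run of letters and not a binding site, and the absence of one covers these windows only.

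The share of probes detected on an array ranged from 26.11% to 31.3%, and the number of arrays limits the precision of every value below. Values are levels in log2 units of intensity after normalization, so they are relative to the other genes on an array, and levels of different genes are not compared. All 9 plasma cell genes looked up, among them SDC1, TNFRSF17 and XBP1, were detected on 16 of 16 arrays. Of the genes of T cells, B cells, myeloid cells and stroma that had a probe, CD2 was detected on 1 array and the others on 0. HBB, a globin gene of red cells, was detected on 16 arrays with a median of 8.55 log2 units, and its part in the results was not tested. Columns carry a prefix N or X that no label explains, and the 2 arrays of a group are named after it, N first.

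The untreated X arrays stood apart from the untreated N arrays in genes that glucocorticoids are known to induce. TSC22D3 (GILZ), a glucocorticoid-induced leucine zipper protein, stood in total RNA at 13.29 and 13.43 at 4 h, against 10.00 and 12.38 at 0 h. FKBP5, a co-chaperone that dampens the glucocorticoid receptor, was 1.58 log2 units higher on the X than on the N array of untreated total RNA, and DDIT4, an inhibitor of mTORC1 signalling, was 3.19 higher. Among the decay regulators, 3 showed the same order on the untreated arrays. ZC3H12A was higher on the X than on the N array by 1.80 in total RNA, 1.36 in pool A, 1.06 in pool B and 1.08 in pool C. ISG20 was higher there by 1.09, 0.79, 0.98 and 1.50, and ZFP36L2 by 0.85, 1.07, 1.68 and 1.38, in the same order of RNA. At 4 h ZFP36L2 was also higher on the X array, by 0.28, 0.72, 1.02 and 0.36. There the X minus N difference ranged from -0.14 to 0.16 for ZC3H12A and from 0.07 to 0.23 for ISG20. In untreated total RNA, 0.0295% of all genes had a larger X minus N difference than ZC3H12A, 0.305% a larger one than ISG20 and 0.935% a larger one than ZFP36L2. In untreated pool A these shares were 1.82%, 7.09% and 3.69%. BTG1 differed less, by 0.03 in total RNA, 0.21 in pool A, 0.50 in pool B and 0.00 in pool C. The part of this difference in the results on dexamethasone was not tested, and the differences in total RNA are given below with and without the untreated X arrays.

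**Figure D1:**
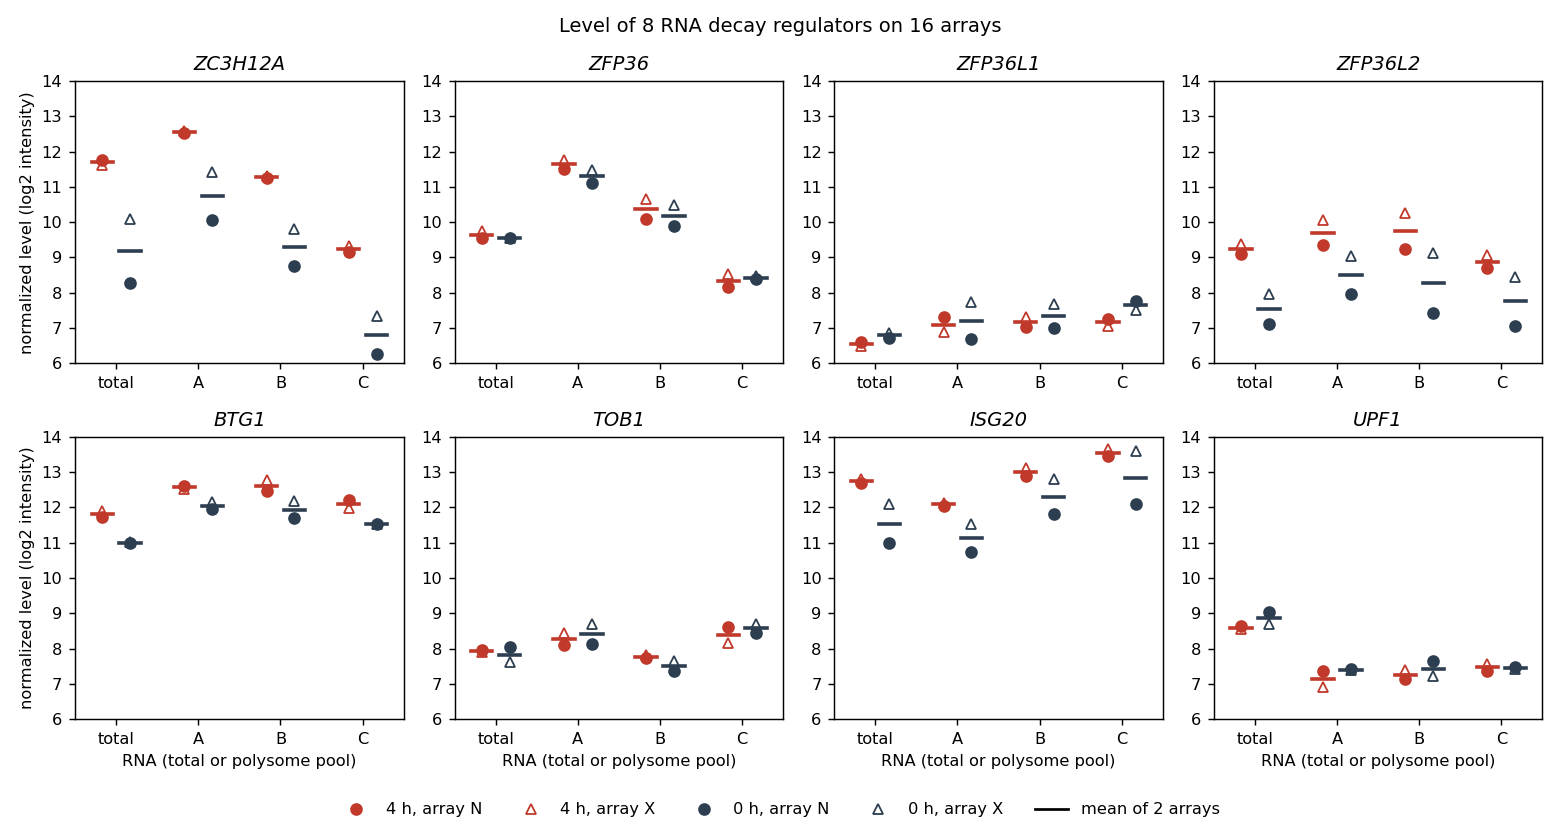
Level of each of the 8 tested genes on the 16 arrays, in log2 units of normalized intensity (y axis), in total RNA and in pools A, B and C (x axis). Red stands for 4 h and dark blue for 0 h of dexamethasone, filled circles for N arrays, open triangles for X arrays, and bars for the mean of the 2 arrays. ZC3H12A, ZFP36L2, ISG20 and BTG1 stand higher at 4 h in total RNA, with the untreated X array between the untreated N array and the treated arrays for the first 3, and ZFP36 and ZC3H12A decline over pools A, B and C.

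The first comparison asked how these mRNAs differed after 4 h of dexamethasone. ZC3H12A, ZFP36L2, ISG20 and BTG1 stood higher on average at 4 h in every kind of RNA, and ZFP36, ZFP36L1, TOB1 and UPF1 differed by less than 0.5 log2 units in every one. None of the 8 passed an adjusted p of 0.05 in limma, fitted with a mean per group and no block. That result depended on the block. With the array prefix as a block, ZC3H12A passed in total RNA and in pools A and C, and ZFP36L2 in total RNA. No label states that the prefix pairs samples. The counts that follow are from the fit without a block. In a bulk sample, fewer cells with an mRNA and less of it per cell cannot be told apart. Members called were 0 of 8 in total RNA, where 0.108% of all genes were called, 0 of 8 in pool A against 0.876%, 0 of 8 in pool B against 0.0295% and 0 of 8 in pool C against 0.0689%. At an unadjusted p under 0.05 there were 4 of 8 in total RNA, 2 in pool A, 3 in pool B and 2 in pool C, each higher at 4 h, against 2.88%, 7.85%, 3.48% and 2.87% of all genes with such a p and higher. The median difference of the 8 genes was 0.46, 0.43, 0.47 and 0.29 log2 units in total RNA and in pools A, B and C, and that of all genes was 0.00, 0.04, -0.01 and 0.01. The genes were chosen with earlier results of these data known, so such counts and medians, here and below, do not test the set.

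ZC3H12A, the endonuclease Regnase-1, had the largest differences among the 8 genes. In total RNA it stood at 11.77 and 11.63 log2 units at 4 h, against 8.29 and 10.09 at 0 h. The treated arrays lay close together and above both untreated arrays, which were 1.80 apart. The difference was 2.51 ± 0.55 log2 units (SE, 5.70-fold, adjusted p = 0.141), and only 1 of the 10163 genes had a larger one in total RNA. In pool A it stood at 12.54 and 12.59 at 4 h, against 10.07 and 11.43 at 0 h, a difference of 1.81 ± 0.55 (adjusted p = 0.168). In pool B the levels were 11.25 and 11.31 at 4 h, against 8.76 and 9.82 at 0 h, a difference of 1.98 ± 0.55 (adjusted p = 0.351). In pool C they were 9.16 and 9.32 at 4 h, against 6.27 and 7.34 at 0 h, a difference of 2.44 ± 0.55 (5.41-fold, adjusted p = 0.213). The arrays did not overlap in any of the 4 kinds of RNA, and 13, 5 and 2 genes had a larger difference in pools A, B and C. Without the untreated X arrays, which leaves 1 untreated array a group, the difference was 3.41 log2 units in total RNA. In pools A, B and C it was 2.49, 2.51 and 2.97. That setting removes the arrays on which the gene was higher, so a larger difference follows from it. It also removes the spread between untreated arrays, so no p-value is given for it. Without background correction the difference was 2.22 in total RNA (adjusted p = 0.0493) and 1.58 in pool C (adjusted p = 0.239). On the untreated N array of pool C, where the level was 6.27, the detection p in the authors' deposited table was 0.0013, the only 1 of the 16 above 0.

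ZFP36L2, an AU-rich element binding protein, had the next largest differences. In total RNA it stood at 9.09 and 9.38 at 4 h, against 7.12 and 7.97 at 0 h, a difference of 1.69 ± 0.58 (3.22-fold, adjusted p = 0.724). The untreated arrays did not reach the treated ones, and 15 genes had a larger difference. In pool A the levels were 9.35 and 10.06 at 4 h, against 7.97 and 9.04 at 0 h, a difference of 1.21 ± 0.58 (adjusted p = 0.41). In pool B they were 9.23 and 10.25 at 4 h, against 7.44 and 9.12 at 0 h, a difference of 1.45 ± 0.58 (adjusted p = 0.663). In pool C they were 8.70 and 9.06 at 4 h, against 7.07 and 8.45 at 0 h, a difference of 1.12 ± 0.58 (adjusted p = 0.897). The arrays did not overlap in any kind of RNA, though the 2 arrays of a group were up to 1.68 apart. Without the untreated X arrays, on which the gene was higher, the difference was 2.11 in total RNA, 1.74 in pool A, 2.29 in pool B and 1.81 in pool C.

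ISG20, the exonuclease, stood in total RNA at 12.70 and 12.80 at 4 h, against 11.00 and 12.09 at 0 h. The treated arrays were 0.10 apart and above both untreated arrays, and the difference was 1.21 ± 0.47 (2.31-fold, adjusted p = 0.888). In pool A it stood at 12.05 and 12.12 at 4 h, against 10.73 and 11.52 at 0 h, a difference of 0.96 ± 0.47 (adjusted p = 0.413). In pool B the levels were 12.89 and 13.12 at 4 h, against 11.82 and 12.80 at 0 h, a difference of 0.69 ± 0.47 (adjusted p = 0.923). In pool C they were 13.45 and 13.66 at 4 h, against 12.09 and 13.59 at 0 h, a difference of 0.71 ± 0.47 (adjusted p = 0.943). In pool C the untreated X array lay between the treated arrays, and without the untreated N array the difference there was -0.04. Without the untreated X arrays the difference was 1.75 in total RNA, 1.35 in pool A, 1.18 in pool B and 1.46 in pool C. The gene was higher on the arrays removed, so a larger difference follows from that setting.

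BTG1, the deadenylase-binding antiproliferative protein, had smaller differences and closer arrays. In total RNA it stood at 11.73 and 11.90 at 4 h, against 10.98 and 11.01 at 0 h, a difference of 0.82 ± 0.21 (1.77-fold, adjusted p = 0.269). In pool A the levels were 12.61 and 12.53 at 4 h, against 11.95 and 12.15 at 0 h, a difference of 0.52 ± 0.21 (adjusted p = 0.307). In pool B they were 12.46 and 12.77 at 4 h, against 11.69 and 12.19 at 0 h, a difference of 0.68 ± 0.21 (adjusted p = 0.434). In pool C they were 12.20 and 11.99 at 4 h, against 11.53 and 11.53 at 0 h, a difference of 0.57 ± 0.21 (adjusted p = 0.681). The arrays did not overlap in any kind of RNA, and the 4 unadjusted p-values ranged from 0.00152 in total RNA to 0.0259 in pool A. Without the untreated X arrays the difference in total RNA was 0.84.

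The other 4 genes had the smallest differences in total RNA among the tested genes. ZFP36 stood in total RNA at 9.54 and 9.76 at 4 h, against 9.55 and 9.54 at 0 h, a difference of 0.11 ± 0.26 with a 95% confidence interval from -0.45 to 0.66. ZFP36L1 stood at 6.60 and 6.48 at 4 h, against 6.73 and 6.87 at 0 h, a difference of -0.26 ± 0.32 (interval from -0.94 to 0.42). TOB1, an adaptor between the deadenylase and RNA-bound proteins, stood at 7.95 and 7.91 at 4 h, against 8.04 and 7.62 at 0 h, a difference of 0.10 ± 0.25 (interval from -0.44 to 0.64). UPF1 stood at 8.64 and 8.55 at 4 h, against 9.05 and 8.69 at 0 h, a difference of -0.27 ± 0.22 (interval from -0.75 to 0.20). All of these intervals held 0. Without the untreated X arrays the differences in total RNA were 0.10 for ZFP36, -0.19 for ZFP36L1, -0.11 for TOB1 and -0.45 for UPF1. In the pools the differences of these 4 genes ranged from -0.48 for ZFP36L1 in pool C to 0.34 for ZFP36 in pool A.

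**Figure D2:**
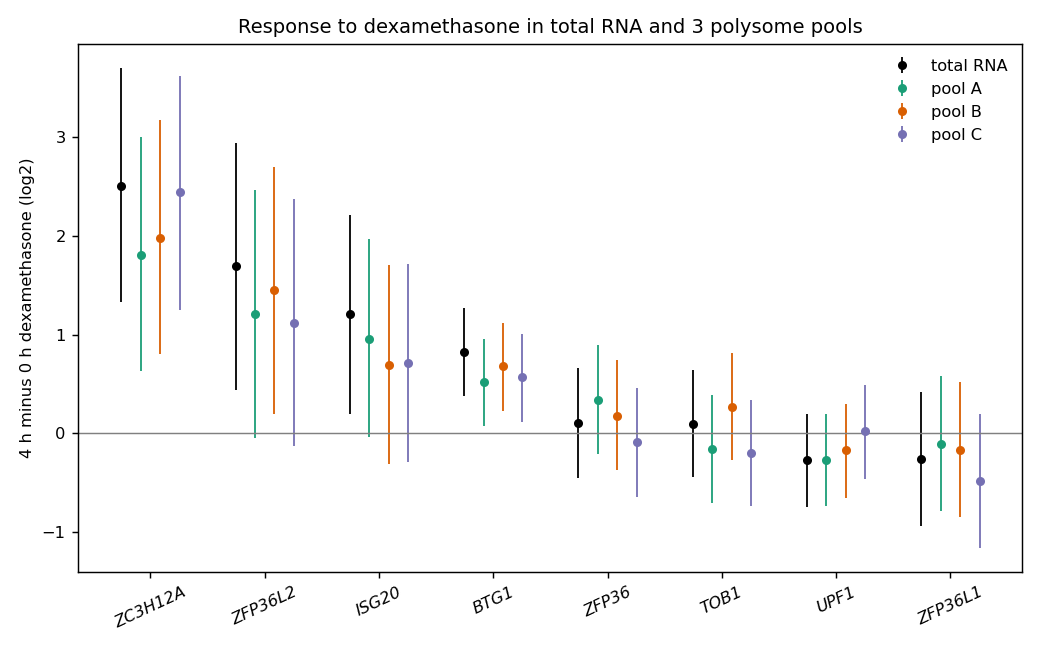
Difference between 4 h and 0 h of dexamethasone (y axis, log2) for the 8 tested genes (x axis), in total RNA and in pools A, B and C. Points are limma estimates from 2 arrays against 2 and lines their 95% confidence intervals. ZC3H12A has the largest estimates, 2.51 in total RNA and 2.44 in pool C, and its 4 intervals lie above 0, while those of ZFP36, TOB1, UPF1 and ZFP36L1 hold 0.

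The arrays of 4 h and 0 h did not overlap, in either direction, for 6 of 8 genes in total RNA, 6 in pool A, 5 in pool B and 4 in pool C. With 2 arrays against 2 that is common: 40.6%, 38.5%, 31.8% and 33% of all genes did not overlap in these comparisons. ZC3H12A, ZFP36L2 and BTG1 did not overlap in any kind of RNA, and ISG20 did not in total RNA and pools A and B. Those without overlap and lower at 4 h were ZFP36L1 in total RNA and pool C and UPF1 in total RNA and pool A. ZFP36 in pool A and TOB1 in pool B were higher without overlap. Whether the response itself differed between pools and total RNA, or between pools C and A, was tested as an interaction. Members called were 0 of 8 in both tests, where 0% of all genes were called. At an unadjusted p under 0.05 there were also 0 of 8, against 1.41% of all genes for pools minus total RNA and 5.76% for pool C minus pool A. The response in the pools minus that in total RNA ranged from -0.43 for ZFP36L2 and ZC3H12A to 0.13 for UPF1, and the response in pool C minus that in pool A ranged from -0.43 for ZFP36 to 0.62 for ZC3H12A. For ZC3H12A the 95% intervals ran from -1.80 to 0.94 and from -1.06 to 2.30, so differences of 1 log2 unit lie within both. Neither value of ZC3H12A kept its sign: the -0.43 turned to 0.13 with medians equalized in place of quantiles, and the 0.62 turned to -0.15 without background correction and to -0.35 in the authors' deposited value table.

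The next comparison asked how each mRNA was spread over the polysome pools, as the mean of both times. ZC3H12A and ZFP36, which both shorten the life of inflammatory mRNAs, were far lower in pool C than in pool A, and ISG20 was higher. BTG1 was lower in pool C by less, a direction that depended on the scaling, and the other 4 genes did not pass the test. Members called were 4 of 8, 1 higher and 3 lower, where 67.9% of all genes were called, 41.1% higher and 26.7% lower. The median of the 8 genes was -0.18 log2 units and that of all genes 0.23.

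ZFP36 stood on the 4 arrays of pool C at 8.15 and 8.53 at 4 h and 8.39 and 8.47 at 0 h, against 11.51 and 11.77 at 4 h and 11.11 and 11.49 at 0 h in pool A. All arrays of pool C lay more than 2 log2 units below all of pool A. The difference was -3.08 ± 0.18 (8.49-fold lower, adjusted p = 1.02e-08), and 137 of 10163 genes had a lower one. Pool B lay between them, at 10.08 and 10.66 at 4 h and 9.89 and 10.48 at 0 h. The difference of ZFP36 was -1.89 ± 0.18 for pool C minus pool B (adjusted p = 1.49e-06) and -1.19 ± 0.18 for pool B minus pool A (adjusted p = 0.00018), both lower. The means over both times were 8.39 ± 0.17 in pool C, 10.28 ± 0.35 in pool B, 11.47 ± 0.27 in pool A and 9.60 ± 0.11 in total RNA (SD, n = 4 arrays each), and no 2 of these 4 sets of arrays overlapped.

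ZC3H12A followed the same order with a wider spread, since both times enter. The difference between pool C and pool A was -3.63 ± 0.39 (12.4-fold lower, adjusted p = 2.19e-06), and 65 genes had a lower one. The arrays of pool C reached 9.32, and those of pool A began at 10.07. The difference was -2.26 ± 0.39 for pool C minus pool B (adjusted p = 0.000216) and -1.37 ± 0.39 for pool B minus pool A (adjusted p = 0.0126), with overlapping arrays in both cases. The last of these did not pass without the untreated X array of pool A (adjusted p = 0.0525) or the untreated N array of pool B (adjusted p = 0.0576). Its means were 8.02 ± 1.48 in pool C, 10.29 ± 1.22 in pool B, 11.65 ± 1.19 in pool A and 10.44 ± 1.63 in total RNA (SD, n = 4 arrays each), and each pool overlapped total RNA in its arrays.

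ISG20 had the opposite order. It was higher in pool C than in pool A by 1.60 ± 0.33 (3.02-fold, adjusted p = 0.00072), and 789 genes, 7.76% of all, had a higher difference. Its means were 13.20 ± 0.74 in pool C, 12.66 ± 0.57 in pool B, 11.60 ± 0.64 in pool A and 12.15 ± 0.83 in total RNA. Pool B was 1.05 ± 0.33 above pool A (adjusted p = 0.0208), a call that did not hold when any of 4 arrays was left out: untreated pool A N (adjusted p = 0.074), untreated pool B X (0.0894), treated pool A N (0.0511) or treated pool B X (0.0591). Neighbouring means in this order overlapped in their arrays. So did pools C and A, since pool C began at 12.09 and pool A reached 12.12.

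BTG1 was lower in pool C, with a difference of -0.50 ± 0.15 for pool C minus pool A (adjusted p = 0.00822) and -0.47 ± 0.15 for pool C minus pool B (adjusted p = 0.0139), but with medians equalized in place of quantiles these were 0.39 and 0.00. That scaling moved the median of all genes to 1.08 in pool C minus pool A and to 0.71 in pool C minus pool B, and relative to it BTG1 was at -0.69 and -0.71, against -0.73 and -0.59 in the quantile-normalized data. In the authors' deposited value table neither call held (-0.14, adjusted p = 0.458, and -0.01, adjusted p = 0.953), and relative to the median of all genes BTG1 was there at -0.38 and -0.30. The call between pools C and B did not hold without the untreated X array (adjusted p = 0.0608) or the treated X array of pool B (adjusted p = 0.0634). ZFP36, ZC3H12A and ISG20 kept their sign relative to the median of all genes under that scaling, with -2.99, -3.69 and 1.18 in pool C minus pool A. Not set against that median, ZFP36 was at -1.91 with medians equalized and -2.36 in the deposited value table, ZC3H12A at -2.61 and -2.80, and ISG20 at 2.26 with medians equalized, each past the threshold. For pool C minus pool B, ZFP36 was 2.1-fold and 2-fold lower and ZC3H12A 2.94-fold and 2.42-fold lower under these 2 settings, also past it.

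TOB1 dipped in pool B. It stood there at 7.72 and 7.83 at 4 h and 7.37 and 7.65 at 0 h, against 8.09 and 8.44 at 4 h and 8.13 and 8.71 at 0 h in pool A, and 8.60 and 8.15 at 4 h and 8.44 and 8.71 at 0 h in pool C. All 4 arrays of pool B lay below all arrays of pools A and C. The differences were 0.83 ± 0.18 for pool C minus pool B (adjusted p = 0.00114) and -0.70 ± 0.18 for pool B minus pool A (adjusted p = 0.00659), and pool C minus pool A was 0.13 ± 0.18 (adjusted p = 0.521). With medians equalized, pool B minus pool A was -0.34 (adjusted p = 0.15).

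In pool C minus pool A, ZFP36L1 differed by 0.25 ± 0.22 (adjusted p = 0.344), ZFP36L2 by -0.79 ± 0.41 (adjusted p = 0.105) and UPF1 by 0.19 ± 0.16 (adjusted p = 0.303). ZFP36L2 turned to 0.46 with medians equalized, which is -0.62 relative to the median of all genes, and passed the threshold without the untreated N array of pool A or the untreated X array of pool C (lowest adjusted p 0.0361). ZFP36L1 passed without the untreated X array of pool A (adjusted p = 0.0331). In the authors' deposited value table ZFP36L1 (0.32, adjusted p = 0.0435), UPF1 (0.31, adjusted p = 0.0247) and TOB1 (0.48, adjusted p = 0.0205) passed as higher in pool C. With medians equalized they also passed, at 1.21, 1.18 and 1.38, which is 0.13, 0.10 and 0.30 relative to the median of all genes. In pool C minus pool B, members called were 4 of 8, where 58.9% of all genes were called, and in pool B minus pool A also 4 of 8, where 42% were called.

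**Figure D3:**
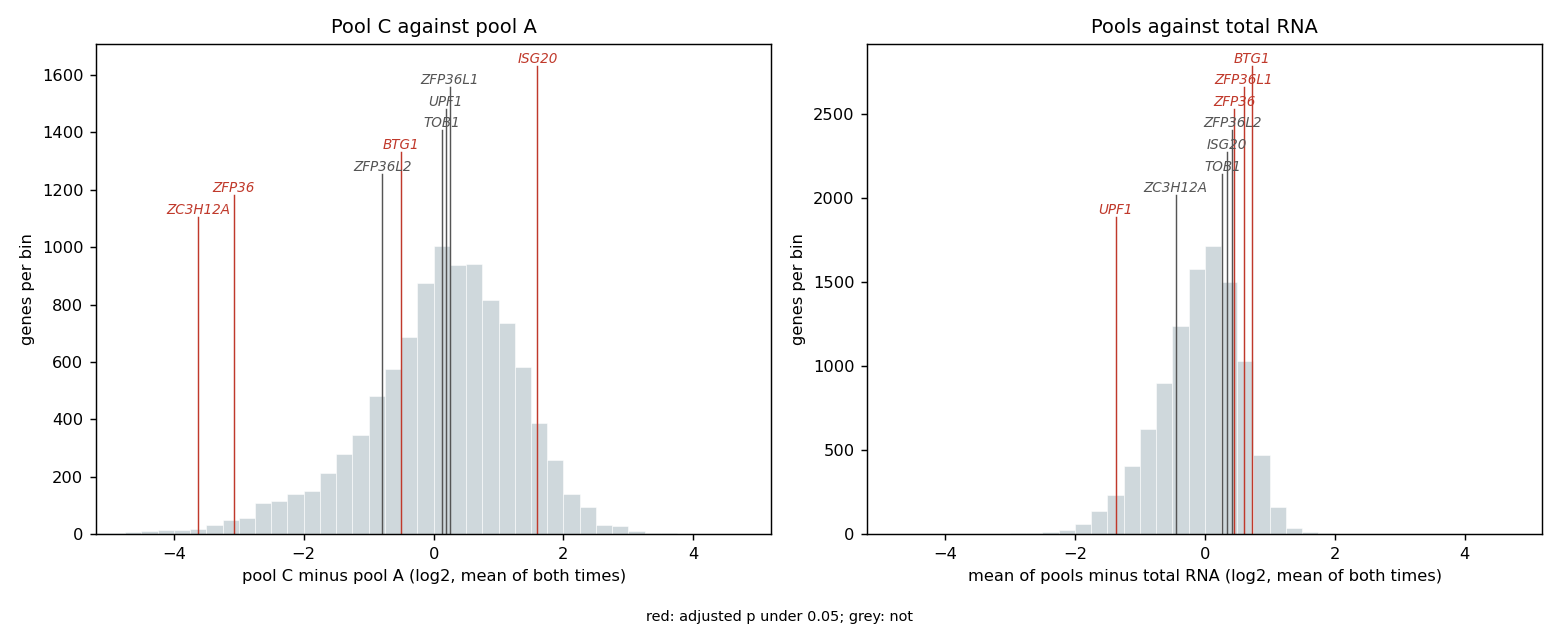
Differences of all 10163 genes (grey bars, genes per bin of 0.25 log2 units) between pool C and pool A on the left and between the mean of the pools and total RNA on the right, with the 8 tested genes as vertical lines. Red lines passed an adjusted p of 0.05 and grey lines did not, and line height has no meaning. ZC3H12A at -3.63 and ZFP36 at -3.08 lie in the lower tail on the left, and UPF1 at -1.37 lies in the lower tail on the right.

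The mean of the 3 pools was then set against total RNA. UPF1 was lower in the pools, BTG1, ZFP36L1 and ZFP36 were higher, and the other 4 did not pass. Members called were 4 of 8, where 51% of all genes were called, 22.5% higher and 28.5% lower. The median of the 8 genes was 0.38 and that of all genes -0.02.

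UPF1, the helicase, stood in the pools between 6.91 and 7.65 on 12 arrays, against 8.64 and 8.55 at 4 h and 9.05 and 8.69 at 0 h in total RNA. No array of a pool reached the lowest array of total RNA, a pattern seen in 10.6% of all genes in either direction and in 8.54% as lower. The difference was -1.37 ± 0.13 (2.59-fold lower, adjusted p = 3.39e-06), and 349 genes, 3.43% of all, had a lower one. Its means were 7.46 ± 0.08 in pool C, 7.35 ± 0.23 in pool B, 7.27 ± 0.24 in pool A and 8.73 ± 0.22 in total RNA (SD, n = 4 arrays each), and the 3 pools did not differ beyond their spread. The difference was -0.91 without background correction, -1.73 with medians equalized and -1.07 from the authors' deposited value table, whose normalization is unknown and in which the 4 total RNA columns share 1 distribution while the pools do not.

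BTG1 was higher in the pools by 0.73 ± 0.12 (1.66-fold, adjusted p = 0.000244), with means of 11.81 ± 0.34 in pool C, 12.28 ± 0.46 in pool B, 12.31 ± 0.31 in pool A and 11.40 ± 0.48 in total RNA. Its arrays overlapped between pools and total RNA, because the treated arrays of total RNA reached 11.90. ZFP36L1 was higher by 0.60 ± 0.18 (adjusted p = 0.0136), with means of 7.40 ± 0.31, 7.26 ± 0.31 and 7.16 ± 0.47 in pools C, B and A and 6.67 ± 0.17 in total RNA. The call did not hold without the untreated N array of total RNA (adjusted p = 0.0568) or the treated X array of total RNA (adjusted p = 0.057). ZFP36 was higher by 0.45 ± 0.15 (adjusted p = 0.022), a mean over a pool A above total RNA and a pool C below it. That call did not hold without the untreated N (adjusted p = 0.0631), untreated X (0.0698) or treated N array of total RNA (0.1). With medians equalized neither ZFP36L1 (0.28, adjusted p = 0.223) nor ZFP36 (0.18, adjusted p = 0.41) passed, and neither did in the authors' deposited value table (0.27, adjusted p = 0.0552, and 0.26, adjusted p = 0.286). The remaining differences were -0.45 ± 0.32 for ZC3H12A, 0.42 ± 0.34 for ZFP36L2, 0.34 ± 0.27 for ISG20 and 0.27 ± 0.15 for TOB1, none past the threshold. ZC3H12A reached it without the untreated N array of total RNA, where the difference was -0.90 (adjusted p = 0.029). TOB1 turned to -0.09 with medians equalized, which moved the median of all genes to -0.23.

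Among themselves the 8 genes followed different patterns over the 16 arrays, which share treatment, pool and normalization, so their correlations are descriptive. ZFP36L2 and BTG1 had the highest Pearson correlation at 0.81, followed by ZFP36L2 with ZC3H12A at 0.78 and ZFP36 with ZC3H12A at 0.74. UPF1 and BTG1 had the lowest at -0.74. ISG20 and ZFP36, which had opposite orders over the pools, had -0.52. By the same measure the genes most like ZFP36 were GPNMB (0.988), AMMECR1 (0.983) and CNEP1R1 (0.982), and those most like UPF1 were SUPT16H (0.978), MED12 (0.977) and NUMA1 (0.968). Those most like ZC3H12A were KLF2 (0.933), N4BP2L2 (0.891) and ANKDD1A (0.876), and those most like ZFP36L2 were GORAB (0.93), CXCR4 (0.922) and PIK3IP1 (0.889). BTG1 was most like SOCS2 (0.932), ZNF189 (0.909) and NFKBIA (0.899), and ISG20 was most like RCSD1 (0.92), TRIOBP (0.897) and ATG4C (0.89). TOB1 was most like CRBN (0.911), CHMP5 (0.889) and PLIN3 (0.862), and ZFP36L1 was most like NIP7 (0.826), ARV1 (0.813) and ERGIC2 (0.79).

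The wider decay machinery was read from 5 lists of 81 other genes, of which 70 were tested. For dexamethasone, 0 of 70 were called in limma in total RNA and in each of pools A, B and C, and 1, 5, 4 and 2 of them had an unadjusted p under 0.05, against 4.56%, 13%, 6.7% and 5.93% of all genes in either direction. Their median differences were -0.04, 0.04, -0.05 and -0.02. LSM6, a subunit of the ring that binds deadenylated mRNA ends, came nearest in pool A, at -1.13 ± 0.25 (adjusted p = 0.0568). AGO3, an Argonaute protein of microRNA silencing, stood 1.15 ± 0.30 higher in pool A (adjusted p = 0.098) and was detected on 6 arrays only. ELAVL1 (HuR), which protects AU-rich mRNAs, stood at -0.85 ± 0.23 in pool C (adjusted p = 0.328).

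In pool C against pool A, 33 of the 70 were higher and 19 lower, where 41.1% of all genes were higher and 26.7% lower. Their median was 0.33. Of the 13 tested genes of deadenylation, 7 were higher and 3 lower. The catalytic subunit CNOT6L was at 1.87 ± 0.14 on the log2 scale and was detected on 9 arrays only. The nuclease PARN was at 1.64 ± 0.19 and the nuclease PAN2 at -1.42 ± 0.22. Of the 15 genes of decapping and 5′ to 3′ decay, 4 were higher and 7 lower. All 4 named there encode small proteins of the LSM ring: LSM3 at -2.97 ± 0.13, LSM7 at -1.54 ± 0.17, LSM6 at -1.41 ± 0.18 and LSM5 at -1.34 ± 0.16. Of the 15 genes of the exosome and its SKI cofactor, 9 were higher and 2 lower, among them SKIC8 at 1.82 ± 0.16 and EXOSC5 at 1.57 ± 0.17. Of the 10 partners of UPF1 in nonsense-mediated decay, 4 were higher, led by the exon junction proteins EIF4A3 at 1.88 ± 0.16 and MAGOH at 1.51 ± 0.15, and SMG8 was lower at -0.78 ± 0.16. Of the 17 other RNA-binding regulators, 9 were higher and 6 lower, with HNRNPD (AUF1) at 1.98 ± 0.15 and KHSRP at -1.19 ± 0.21, both binders of AU-rich elements. ZFP36 at -3.08 and ZC3H12A at -3.63 lay below all 70 of them, of which LSM3 was the lowest.

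In the pools against total RNA, 14 of the 70 were higher and 25 lower, where 22.5% of all genes were higher and 28.5% lower. Their median was 0.00. The UPF1 partners UPF2 at -1.41 ± 0.13, SMG1 at -0.98 ± 0.17, EIF4A3 at -0.95 ± 0.13 and CASC3 at -0.92 ± 0.11 were lower, 5 of the 10 tested partners in all and none higher. EDC4, the scaffold of decapping, was lowest of all at -1.84 ± 0.16, followed by PAN2 at -1.51 ± 0.18. The nuclease XRN1 stood at -0.99 ± 0.15, the deadenylase scaffold CNOT1 at -1.12 ± 0.16 and the exosome nuclease EXOSC10 at -1.15 ± 0.19. The catalytic subunit CNOT7 was higher at 1.15 ± 0.17, and LSM6 and LSM5 were higher at 0.88 ± 0.15 and 0.87 ± 0.13. Of the other LSM genes, LSM1 at 0.50 ± 0.10, LSM4 at 0.40 ± 0.15 and LSM2 at 0.30 ± 0.11 were higher. LSM3 was lower at -0.50 ± 0.11, and LSM7 at 0.26 ± 0.14 did not pass. UPF1 at -1.37 lay close to UPF2. These lists are described by their counts and medians, with no test of a list.

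**Figure D4:**
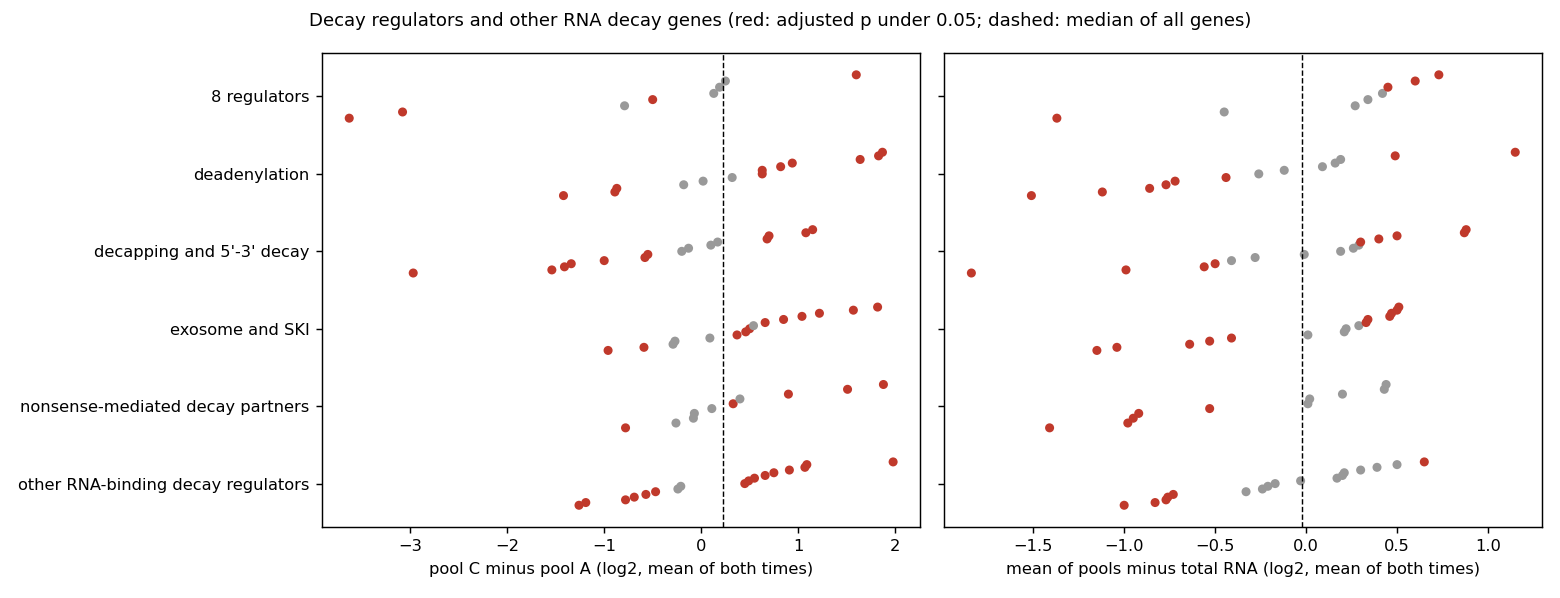
Differences in log2 units between pool C and pool A (left) and between the mean of the pools and total RNA (right) for the 8 tested regulators and 70 other decay genes in 5 lists (rows), each point 1 gene, spread vertically for legibility. Red points passed an adjusted p of 0.05, grey points did not, and the dashed line is the median of all 10163 genes, 0.23 on the left and -0.02 on the right. ZC3H12A and ZFP36 are the 2 leftmost points in the first row of the left panel, and LSM3 at -2.97 is the lowest of the other genes.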

How the data were processed

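RNA of 16 MM1.S samples was measured on Illumina bead arrays. The deposited non-normalized table gives, per the file headers, an intensity and a detection p-value for each of 47323 probes and 16 arrays. A second deposited table gives normalized values of the same samples, read as log2 from their range. Its normalization and centring are unknown, its 4 total RNA columns share 1 distribution while the pools do not, and its column medians lie between 7.21 and 7.409. For 16 of 16 arrays the column with the highest correlation belonged to the array's own group, so its direction is that of intensity. It served as an alternative. The files name no slide, and table columns give a group but no replicate number.

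Intensities were background-corrected with limma's nec on detection p-values (offset 16), put on a log2 scale and quantile-normalized (R 4.3.3, limma 3.58.1). Probes with a detection p-value under 0.01 on at least 2 arrays were kept, 17269 in all. In the annotation, 30113 of 30121 listed probes had 1 gene symbol, 8 had several, and 17202 are unnamed here. Of those with 1 symbol, 30074 matched the reference gene table, which gave current symbols. Each gene was represented by its probe of highest mean, which left 10163 genes. A mean was fitted for each of 8 groups (lmFit, eBayes, 8 residual and 5.363 prior degrees of freedom), and p-values were adjusted by Benjamini-Hochberg over all genes within each of 10 comparisons, with a threshold of 0.05. Errors of differences are limma's standard errors. The fit was tested on simulated data with independent noise on each array. Those data hold no deviations shared by arrays of the same prefix, so that test does not cover them.

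The members, lists, comparisons and alternatives were chosen with earlier results of these data known. All members are named. Of each list, up to 4 genes past the threshold by absolute change were eligible, or the 1 with the smallest p where none passed. The text names a part of these, and adds the other tested LSM genes for the comparisons of pools. Likeness names the 3 genes with the highest Pearson correlation over 16 arrays. The 4 members whose dexamethasone values are given pool by pool were chosen after their values were seen.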

Additional observations from a re-analysis of the deposited data

How the results depend on the processing

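Differences of the members were recomputed with each of the 16 arrays left out and under 13 other alternatives, of which 2 (quantile normalization before the log2 step, and after the filter on detection) were chosen after seeing the data and moved no count of members called. Of the 80 member values, the 51 printed singly were picked after their values were seen. Over all 80 values and 2304 recomputations, 98 changed sign, 2 of them of called values. Slide as a block was not run, because the files name none, and the fit on only the groups of a comparison could not be had for contrasts of pools with total RNA. Members called for dexamethasone in total RNA were 0, against 1 without background correction. Leaving out the 4 untreated X arrays leaves 1 untreated array a group, assumed to vary like the others, so only differences are given for that setting. In the fit with all arrays, all genes called were 11, 89, 3 and 7 in total RNA and in pools A, B and C. Members called for pools against total RNA were 4, against 2 with medians equalized and 2 from the deposited value table. Leaving out 1 array gave 0 to 0 for each dexamethasone response and both interactions, 4 to 5 for pool C minus pool A, 3 to 5 for pool C minus pool B, 3 to 4 for pool B minus pool A and 3 to 4 for pools minus total RNA. Signs turned for TOB1 in total RNA without the untreated X arrays (-0.11) and, with medians equalized, for ZFP36L2 (0.46) and BTG1 (0.39) in pool C minus pool A, BTG1 in pool C minus pool B (0.00) and TOB1 in pools minus total RNA (-0.09). The response of ZC3H12A in pools minus total RNA turned to 0.13 with medians equalized, and that in pool C minus pool A to -0.15 without background correction and to -0.35 in the deposited value table, without and with the replicate number as block. Leaving out 1 array turned signs in 30 of the 80 values, none called, of which 8 are among the 51: dexamethasone in total RNA ranged from -0.01 to 0.22 for ZFP36 and from -0.11 to 0.31 for TOB1, ISG20 in pool C from -0.04 to 1.46, and pool C minus pool A from -0.02 to 0.51 for ZFP36L1 and from -0.01 to 0.28 for TOB1. The response in pools minus total RNA ranged from -1.33 to 0.47 for ZC3H12A and from -0.05 to 0.31 for UPF1, and that in pool C minus pool A from -0.06 to 1.30 for ZC3H12A. Apart from the alternatives' own construction, the cause of these changes was not tested. Signal near background limits ZC3H12A in pool C, and ZFP36L1 and UPF1 in the pools, where the detection p-value was not 0 on every array.

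Each array prefix is carried by 1 array of every group, and each replicate number by 1 sample of every group. Nothing states that they pair samples. Deviations from the group means correlated above 0.1 for 27 of 28 pairs of groups by prefix (-0.076 to 0.403) and for 27 of 28 by replicate number (-0.056 to 0.435). With the prefix as a replicate block, members called were 2 in total RNA, 1 in pool A, 0 in pool B and 1 in pool C for dexamethasone, and all genes called were 50, 213, 13 and 32. ZC3H12A passed in total RNA (adjusted p = 0.0212), pool A (0.0447) and pool C (0.0308), ZFP36L2 in total RNA (0.0244), and for the pools ZFP36L2 passed in pool C minus pool A (0.0042), pool C minus pool B (0.0105) and pools minus total RNA (0.0483). In the deposited value table with the replicate number as block, members called for dexamethasone were 2, 4, 1 and 1, and all genes called were 60, 580, 20 and 44. There ZC3H12A passed in total RNA (adjusted p = 0.00419), pool A (0.000881), pool B (0.0172) and pool C (0.00543). ZFP36L2 passed in total RNA (0.0355) and pool A (0.018), and ISG20 (0.00877) and BTG1 (0.0131) in pool A only.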
